A study of Mus musculus with 2 samples.

Results

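The genes described here are 32 genes of glutathione and antioxidant defence, chosen by name from the 32285 genes listed in the deposited tables, with every one of the 32 symbols matching 1 row. They hold the transcription factor Nrf2 (Nfe2l2) and its inhibitor Keap1, the enzymes that make and recycle glutathione, the thioredoxins and peroxiredoxins, the glutathione peroxidases, superoxide dismutases and catalase, and the soluble and membrane-bound glutathione transferases. The rule uses names and roles only, and the members were chosen with earlier results of these data known.

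The study profiled single intestinal epithelial cells from mice that overexpress MG53 throughout the body (MG53-TG) and from wild type (WT) littermates, both given 2.5% dextran sulfate sodium (DSS), which damages the epithelium and inflames the bowel, and taken on day 7. MG53, also called TRIM72, is a membrane repair protein encoded by Trim72. Crypts were dissociated and live cells carrying EpCAM, a surface protein of epithelia, were sorted into a 10x Genomics 3′ library, 1 per genotype. Neither the promoter of the transgene, the age of the animals nor the number of mice in a library is given in the labels. The study's legend states several animals per group, which the deposited barcodes do not tell apart, so each library counted as 1 sample, and mice without DSS were not analysed here.

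Glutathione is the main small thiol of the cell. Its synthesis is limited by glutamate-cysteine ligase, a pair of a catalytic subunit (Gclc) and a modifier subunit (Gclm), completed by glutathione synthetase (Gss), and glutathione reductase (Gsr) regenerates it with NADPH. Nrf2 is held low by Keap1 and, once released by oxidants or electrophiles, binds antioxidant response elements near genes of this kind. The intestinal epithelium meets bile acids, food electrophiles and microbial products, and is known for its own peroxidase, Gpx2, and for transferases that are abundant on the villus.

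A core of the antioxidant response element, TGACNNNGC, was looked for on both strands of the promoter windows in RefSeq (GRCm38.p6), which run from 250 bases before to 50 bases after an annotated start, and a gene with several starts can have several windows. A window was present for 28 of the 32 genes, 35 windows in all, and 8 of these (28.6%) held the core, against 14.0% of the 27025 genes with a window. No match overlapped another. The 7 matches that precede the start of their own window are shown because they are the stretches at which the letters of the element and these genes coincide, each with 10 bases on either side, 5′ to 3′ on the gene's strand, with the 9 bases of the match in capitals. In Nfe2l2 it lies on the gene's strand and in the others on the opposite strand.
Nfe2l2, chr2:75704885-75704913, − strand: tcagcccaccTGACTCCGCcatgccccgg
Gclm, chr3:122245413-122245441, + strand: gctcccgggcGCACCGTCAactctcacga
Prdx1, chr4:116685456-116685484, + strand: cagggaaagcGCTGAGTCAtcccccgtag
Mgst1, chr6:138140461-138140489, + strand: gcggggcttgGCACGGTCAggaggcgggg
Txnrd1, chr10:82859104-82859132, + strand: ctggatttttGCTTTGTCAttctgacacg
Sod1, chr16:90220696-90220724, + strand: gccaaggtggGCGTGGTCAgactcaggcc
G6pdx, chrX:74428919-74428947, − strand: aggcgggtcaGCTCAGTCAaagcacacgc
For Mgst1, G6pdx and Txnrd1 that start is not the outermost one of the gene in GENCODE M21, and the match lies 155, 257 and 25163 bases after the outermost start, whereas the matches of the other 4 genes precede it. The eighth match, in Srxn1, lies after both starts. A match of these letters is a description and not a binding site, and elements outside the windows were not looked at. In all epithelial cells summed, the median log2 ratio of MG53-TG over WT was −0.04 over the 8 genes with the core and −0.01 over the 20 without.

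After the cell filter, 6963 WT and 4941 MG53-TG cells remained, of which 6119 and 4606 were epithelial, with medians of 15666 and 18654 unique molecular identifiers (UMIs) per epithelial cell. Levels are CPM, the UMIs of a gene scaled to a fixed total of UMIs of a type and library, and intervals are exact 95% intervals that cover counting error only. With 1 library per genotype no test between genotypes was possible, so that genotype, library, processing version and the mice used cannot be told apart. Trim72 was at 0.594 CPM in the WT and 50.8 CPM in the MG53-TG epithelium. Clusters were named from marker lists, without the 32 genes, as stem-like, Gsdmc-high transit-like, enterocyte-like, ileal enterocyte-like, secretory progenitor-like, goblet-like, Paneth-like, tuft-like and enteroendocrine-like cells. The sort also held T cell-like cells (576 WT and 228 MG53-TG cells), which served as a level for cells outside the epithelium. WT barcodes with at most 100 UMIs, taken as empty droplets, gave the level of free RNA; the MG53-TG table has no such barcodes. All 32 genes were seen in these droplets, with a sum of 6308 CPM against 9787 CPM in the WT epithelium.

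Most of these genes had their highest level in Gsdmc-high transit-like, enterocyte-like or ileal enterocyte-like cells, namely 10, 9 and 3 of the 32 in WT and 10, 10 and 4 in MG53-TG. The summed level was 15308 and 14933 CPM in WT and MG53-TG Gsdmc-high transit-like cells, named for their gasdermin C genes, and 15032 and 14761 CPM in enterocyte-like cells. Ileal enterocyte-like cells followed at 12037 and 11585 CPM, stem-like cells at 10678 and 9742 CPM and tuft-like cells at 8362 and 8136 CPM. The secretory progenitor-like, goblet-like and enteroendocrine-like cells lay between 5680 and 6240 CPM in WT and between 5890 and 6068 CPM in MG53-TG, and Paneth-like cells had 1724 and 1401 CPM. Of the 32 genes, 27 had the same highest type in both libraries, and the order of the 9 types was close in both (Spearman's rho between libraries of at least 0.85 per gene, with a median of 0.98, given as a description over 9 types that share their libraries). The highest type differed between libraries for Nfe2l2, Prdx2, Gstm1, Gsto1 and G6pdx.

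**Figure D1:**
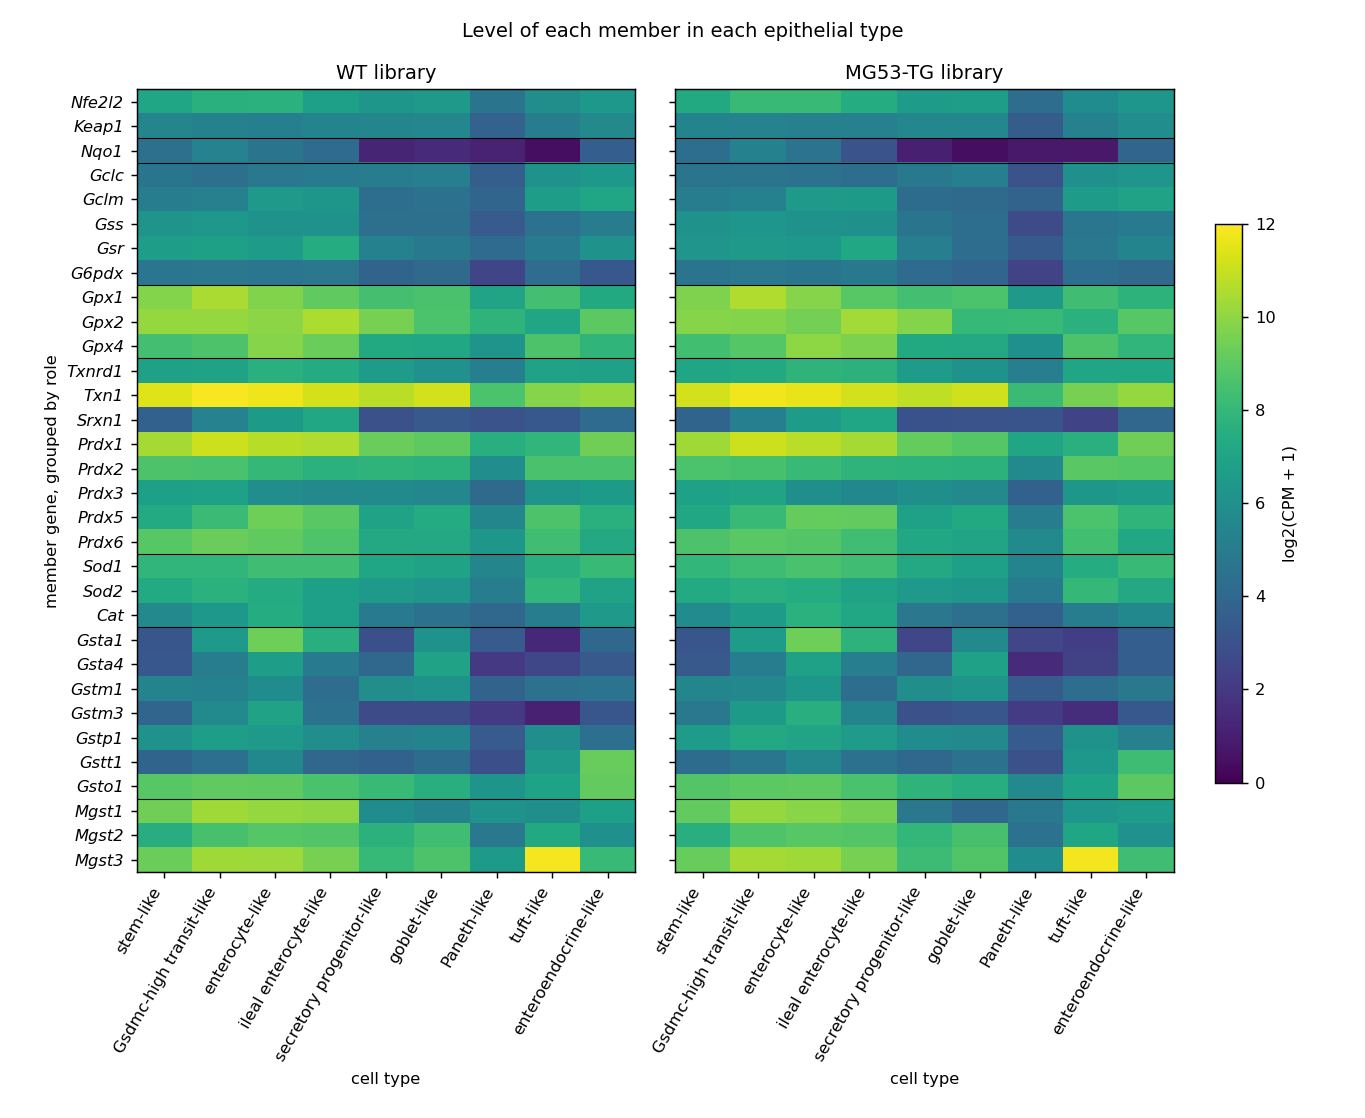
Level of each of the 32 genes, on the scale log2(CPM + 1), in 9 epithelial types (columns) of the WT library (left) and the MG53-TG library (right). Rows are grouped by role, separated by lines. The Paneth-like column is dark in both panels, Mgst3 is brightest in tuft-like cells (3714 and 3558 CPM), and Gsta1 is bright in enterocyte-like cells (652 and 660 CPM).

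Paneth-like cells were lowest in both libraries for 26 of the 32 genes. There, 9 Paneth marker genes, mostly antimicrobial granule products, took 57.3% of UMIs in WT and 60.1% in MG53-TG, so that every other gene's share of the total is small. With all marker genes left out of the totals, a scale chosen after seeing the data, Paneth-like cells were lowest for 10 genes. Their summed level was then 4297 and 3778 CPM in WT and MG53-TG, still the lowest of the 9 types. The number of genes that differed over 4-fold between their highest and lowest type in both libraries was 31 over all 9 types and 22 without Paneth-like cells, where 87.9% and 37.8% of the 7576 genes tested in the epithelium did so. Keap1 was the flattest, with a 1.57-fold range in WT and 1.62-fold in MG53-TG over the 8 other types.

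Among the regulators, Nfe2l2 was highest in enterocyte-like and Gsdmc-high transit-like cells. Its WT levels were 203 and 196 CPM there, 132 CPM in stem-like cells and 60.8 CPM in tuft-like cells. In MG53-TG the same 4 types had 270, 272, 155 and 56.2 CPM. Keap1 lay between 31.4 and 49.4 CPM in the 8 types other than Paneth-like cells in WT, and between 36.0 and 58.3 CPM in MG53-TG. The quinone reductase Nqo1, a classical Nrf2 target, was at 38.6 and 38.0 CPM in Gsdmc-high transit-like cells of WT and MG53-TG. It was at 1.70 and 0.383 CPM in goblet-like cells and at 0.383 and 0.746 CPM in tuft-like cells.

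The enzymes of glutathione synthesis did not share 1 distribution. Gclc and Gclm, the subunits of the rate-limiting ligase, were both highest in enteroendocrine-like cells, the hormone-secreting cells of the gut, and next in tuft-like cells, the chemosensory cells. Gclc was at 82.0 and 76.3 CPM in WT and MG53-TG enteroendocrine-like cells, and Gclm at 138 and 119 CPM. Tuft-like cells had 69.6 and 63.1 CPM of Gclc and 102 and 96.0 CPM of Gclm, whereas stem-like cells had 24.2 and 23.6 CPM of Gclc and 31.5 and 31.4 CPM of Gclm. By cluster the order of Gclm was less clear. The enterocyte-like cluster led by Plb1 and Enpp7 had 167 and 181 CPM and the ileal enterocyte-like cluster led by Saa1 had 140 and 188 CPM, against 123 and 108, and 166 and 148 CPM in the 2 enteroendocrine-like clusters. Gss, the enzyme of the second step, was instead highest in Gsdmc-high transit-like cells (83.3 and 79.1 CPM) and at 33.5 and 29.7 CPM in enteroendocrine-like cells. Gsr was highest in ileal enterocyte-like cells, at 174 and 141 CPM, and among types other than Paneth-like cells lowest in goblet-like cells, at 27.5 and 18.5 CPM. G6pdx, which feeds NADPH into this cycle, was low throughout, with 26.2 CPM at most in WT and 28.3 CPM at most in MG53-TG.

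The peroxidases differed by isoform. Gpx1, the cytosolic enzyme found in most tissues, was highest in Gsdmc-high transit-like cells at 1413 and 1530 CPM in WT and MG53-TG, and at 155 and 213 CPM in enteroendocrine-like cells. Gpx2, the gastrointestinal isoform (chr12:76792333-76795554, GRCm38, − strand), was highest in ileal enterocyte-like cells at 1493 and 1304 CPM and next in stem-like cells, at 1105 and 895 CPM. Tuft-like cells had 137 and 200 CPM of Gpx2. Within them the levels were unequal, since the tuft-like cluster led by Nrgn and Siglecf had 39.5 and 19.5 CPM and the one led by Nrep and Gng13 had 333 and 577 CPM. For comparison, T cell-like cells had 23.0 and 20.7 CPM. Gpx4, which reduces lipid hydroperoxides in membranes, was highest in enterocyte-like cells at 894 and 988 CPM.

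Thioredoxin, Txn1, was the most abundant of the 32 genes in the epithelium, at 2500 and 2292 CPM in WT and MG53-TG. Gsdmc-high transit-like cells had 3825 and 3469 CPM of it, and tuft-like cells 914 and 740 CPM. Prdx1, a cytosolic peroxiredoxin, was also highest in Gsdmc-high transit-like cells, with 2200 and 2168 CPM there, 1678 and 1704 CPM in enterocyte-like and 241 and 194 CPM in tuft-like cells. Prdx2 stood apart from it: tuft-like cells had 378 and 493 CPM and stem-like cells 400 and 392 CPM, against 253 and 268 CPM in enterocyte-like cells. Prdx3, the mitochondrial peroxiredoxin, was at 108 and 114 CPM in stem-like and 57.9 and 61.1 CPM in enterocyte-like cells. Srxn1, the sulfiredoxin that repairs overoxidised peroxiredoxins, reached 142 and 135 CPM in ileal enterocyte-like cells and 91.8 and 94.8 CPM in enterocyte-like cells, and was at 12.3 and 13.4 CPM in stem-like cells. Its highest clusters were an ileal enterocyte-like one led by Saa1 and Slc10a2, at 200 and 241 CPM, and an enterocyte-like one led by Plb1 and Enpp7, at 166 and 195 CPM.

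Sod2, the mitochondrial dismutase, was highest in tuft-like cells, at 243 and 250 CPM in WT and MG53-TG, and Sod1, the cytosolic one, in enterocyte-like cells, at 322 and 374 CPM, with ileal enterocyte-like cells at 322 and 320 CPM. Cat, the peroxisomal catalase, was highest in enterocyte-like cells at 173 and 200 CPM and at 21.4 and 20.3 CPM in goblet-like cells. Mgst3, a microsomal transferase of the family that also makes leukotriene C4 (chr1:167371966-167393841, GRCm38, − strand), was at 3714 and 3558 CPM in WT and MG53-TG tuft-like cells. The next types were Gsdmc-high transit-like cells at 1244 and 1338 CPM. In cells thinned to 1354 UMIs, 98.7% of WT and 96.5% of MG53-TG tuft-like cells had an Mgst3 UMI, against 3.82% and 2.19% of T cell-like cells, whose median depths were 2827 and 3571 UMIs before thinning. Unthinned, the shares were 100% and 99.3% in tuft-like cells and 6.25% and 6.58% in T cell-like cells, and both tuft-like clusters were alike in this, at 3916 and 3816 CPM and at 3310 and 3020 CPM.

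Gstt1, a theta class transferase (chr10:75783813-75798584, GRCm38, − strand), was highest in enteroendocrine-like cells, at 583 and 305 CPM in WT and MG53-TG. It was far from even between the clusters of this type. The cluster led by Afp, Tph1, Chga and Tac1, the last 3 genes of serotonin-producing enterochromaffin cells, had 1566 and 956 CPM, and the cluster led by the peptide hormone genes Sst, Ghrl, Gip and Cck had 69.8 and 62.1 CPM. The same cluster held more Cat, at 197 and 107 CPM against 29.5 and 26.1 CPM. Conversely, Gsto1 was at 735 and 622 CPM in the peptide hormone cluster and 224 and 186 CPM in the other.

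Gsta1, an alpha class transferase, was at 652 and 660 CPM in enterocyte-like cells and at 1.53 and 3.73 CPM in tuft-like cells. Gsta4, known for its action on 4-hydroxynonenal, a product of lipid peroxidation, was highest in goblet-like cells at 121 and 117 CPM, above enterocyte-like cells at 100 and 114 CPM. Within the goblet-like cells it was concentrated in the cluster led by Ido1 and Frmd3, at 444 and 404 CPM in WT and MG53-TG. The goblet-like cluster led by Mptx1 and Sval1 had 98.5 and 122 CPM and the one led by Agr2 and Fkbp11 had 45.9 and 60.9 CPM. Gsta1 had the same order over these 3 clusters, with 287 and 249, 49.6 and 40.7, and 18.2 and 21.6 CPM. No enterocyte-like cluster had more than 122 CPM of Gsta4 in WT or 136 CPM in MG53-TG, so that the level in the Ido1-led goblet-like cluster was above all of them. Reads shared by close relatives could be split by the counting, whose treatment of such reads is not given in the sources used here, so that levels of Gsta1, Gstm1, Gstm3 and Gstp1 are uncertain in that respect.

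Along the crypt-to-villus axis, 10 of the 32 genes were over 2-fold higher in enterocyte-like than in stem-like cells in both libraries, and 0 were over 2-fold lower. Over all 7942 genes tested the shares were 15.2% higher and 25.8% lower. The 10 genes were Gsta1, Gsta4, Gstm3, Gstt1, Srxn1, Prdx5, Cat, Gclm, Gpx4 and Mgst2. Stem-like cells had 8.35 and 8.15 CPM of Gsta1 in WT and MG53-TG, a ratio of 78.0-fold and 81.0-fold to the enterocyte-like cells (log2 6.29, interval 6.08 to 6.50, and 6.34, interval 6.07 to 6.62). Gsta4 was 11.7-fold and 12.4-fold higher, Gstm3 8.46-fold and 6.94-fold, and Srxn1 7.49-fold and 7.09-fold. Empty WT droplets had 85.3 CPM of Gsta1, 39.9 CPM of Gsta4, 29.5 CPM of Gstm3 and 43.6 CPM of Srxn1, each above the stem-like level, and the part of free RNA in the stem-like levels was not tested.

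The other 22 genes were not past 2-fold the same way in both libraries, beside 15.2% of all genes that were higher and 25.8% lower. Gclc, Gss, Gsr, G6pdx, Gpx1, Prdx6, Gsto1 and Sod2 had log2 ratios between −0.14 and 0.23 in both libraries. Gpx2 was slightly lower in enterocyte-like cells, at −0.19 and −0.33, and Prdx3, at −0.90 in both, came nearest to the lower threshold. Mgst3 was at 0.93 in WT and 1.05 in MG53-TG, just outside and just inside. In all, 29 of the 32 genes had the same sign in both libraries, the exceptions being Gclc, Gsr and Gpx1 with log2 ratios of at most 0.15 in size. The members were kept out of the genes used for clustering, but cell types defined from the same cells are no independent sample, and no test was made.

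**Figure D2:**
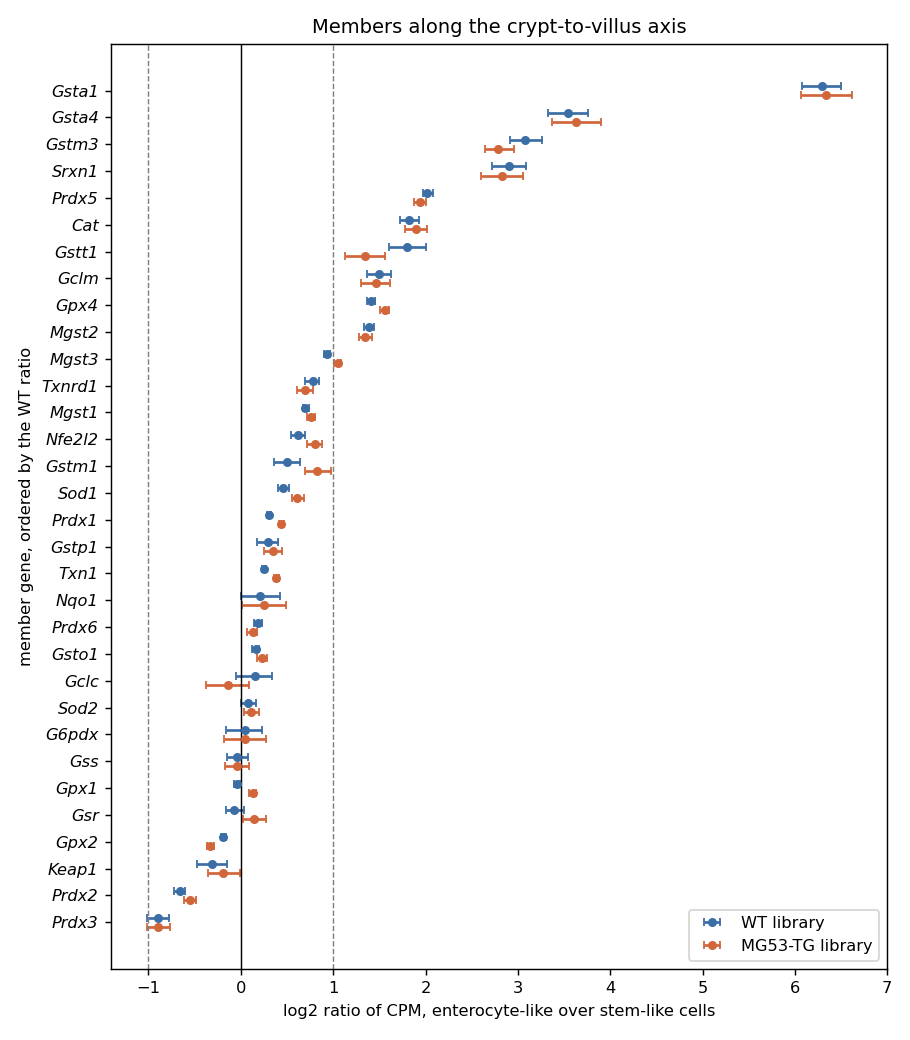
Log2 ratio of CPM in enterocyte-like over stem-like cells for each gene, in the WT (blue) and MG53-TG (orange) library. Bars are exact 95% counting intervals and dashed lines mark 2-fold. Gsta1 lies apart at 6.29 and 6.34, 10 genes lie past the upper line in both libraries and 0 past the lower line.

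Between genotypes the set as a whole differed little in the epithelium. With all epithelial cells summed, the median log2 ratio of MG53-TG over WT, with a pseudocount of 1 CPM, was −0.02 over the 32 genes and 0.09 over all 7576 genes tested, and 15 genes lay above 0 and 17 below, against 5196 and 2380 of all genes. Scaling by the median of ratios takes 0.09 off each ratio, which gives −0.11 for the 32 genes. The summed level was 9787 and 8968 CPM in WT and MG53-TG. Only Gstm3 was over 1.5-fold higher in MG53-TG, where 3.18% of all genes were, and only Gsr was over 1.5-fold lower, where 0.620% were. In such a sum, fewer cells of a type and less RNA per cell cannot be told apart: goblet-like cells were 23.6% of WT and 36.9% of MG53-TG epithelial cells, stem-like cells 16.7% and 10.4%, and Gsdmc-high transit-like cells 16.3% and 9.27%.

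**Figure D3:**
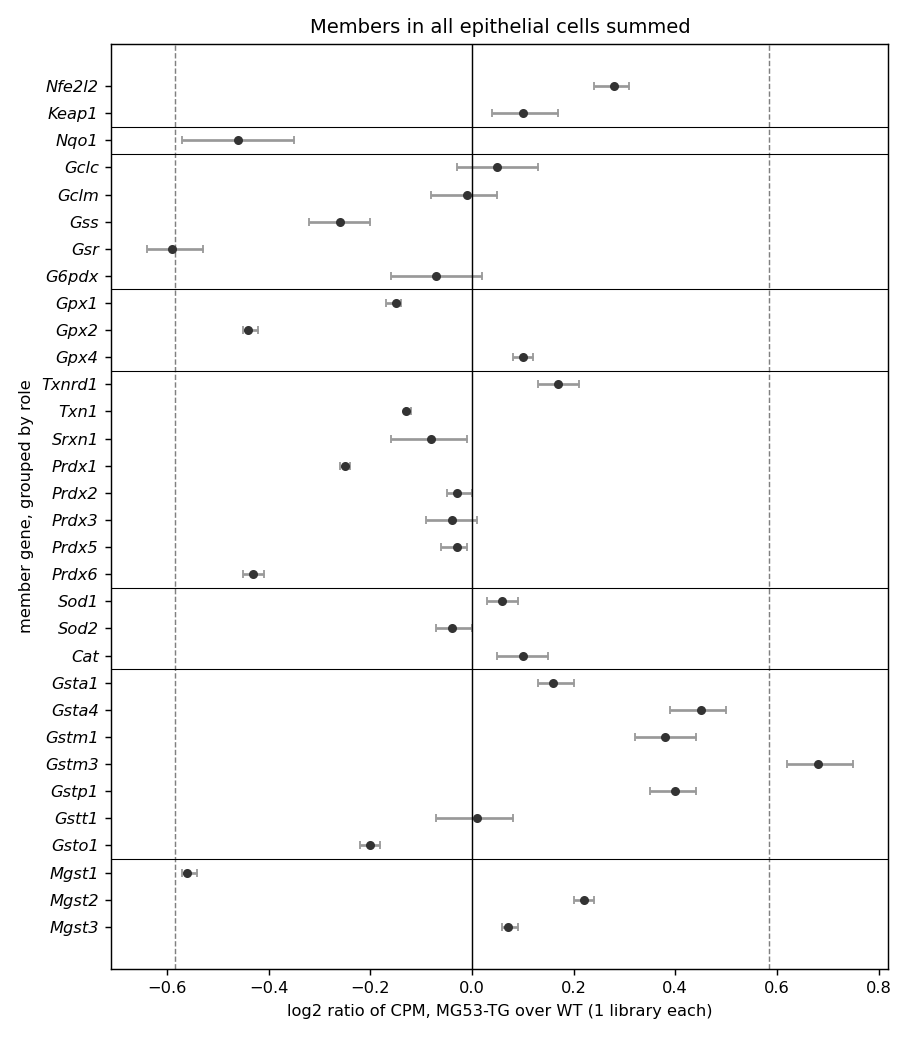
Log2 ratio of CPM, MG53-TG over WT, for each of the 32 genes in all epithelial cells summed, grouped by role. Bars are exact 95% counting intervals from 1 library per genotype, and dashed lines mark 1.5-fold. Gstm3 (0.68) lies past the upper line and Gsr (−0.59) at the lower line.

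Gstm3, a mu class transferase (chr3:107963696-107969283, GRCm38, − strand), was at 30.6 and 49.2 CPM in WT and MG53-TG epithelium, a log2 ratio of 0.68 (0.62 to 0.75). The MG53-TG level was the higher one in each of the 9 types. Gsdmc-high transit-like cells had 93.5 CPM in MG53-TG, 1.87 times their WT level, from 1005 and 987 UMIs. Stem-like cells had 14.1 and 27.0 CPM in WT and MG53-TG, enterocyte-like cells 119 and 188 CPM and ileal enterocyte-like cells 21.8 and 41.8 CPM. The log2 ratios of these 4 types were 0.90 (0.78 to 1.03), 0.94 (0.72 to 1.16), 0.66 (0.56 to 0.75) and 0.94 (0.58 to 1.30). The call ended in the epithelium with the mean of single-cell CPM (0.53), in stem-like cells with finer clusters (0.57), and in enterocyte-like cells with a mitochondrial limit of 50% (0.50) or a lower UMI minimum (0.57), while that in Gsdmc-high transit-like cells ended in no setting. In ileal enterocyte-like cells it ended in 6 settings, with log2 ratios from 0.17 with doublets kept to 0.56 with a mitochondrial limit of 50%. The other 5 types had at most 8.38 and 8.75 CPM in WT and MG53-TG and did not reach the level set for a call. In the 3 enterocyte-like clusters the levels were 143 and 200, 18.0 and 28.6, and 136 and 267 CPM. Of 11 epithelial clusters with enough UMIs, 9 were higher in MG53-TG, and the exceptions were the unnamed cluster led by Tmprss15, at 19.8 and 14.5 CPM, and the enteroendocrine-like cluster led by Sst, at 10.1 and 10.0 CPM. T cell-like cells had 2 and 3 UMIs of it.

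Gstp1, the pi class transferase, had the same direction in all 9 types at a smaller size, with 62.5 and 82.2 CPM in WT and MG53-TG epithelium (log2 0.40, 0.35 to 0.44). Its ratio was over 1.5-fold in ileal enterocyte-like cells (59.7 and 96.4 CPM, log2 0.69) and enteroendocrine-like cells (19.8 and 37.0 CPM, log2 0.90). The call in enteroendocrine-like cells ended with doublets kept (0.40) and with a higher UMI minimum (0.39). Of 19 epithelial clusters with enough UMIs, 17 were higher in MG53-TG. T cell-like cells had 61.7 and 70.0 CPM. Gstp2, its near-identical neighbour, stood at 8.52 and 11.5 CPM, and the pair cannot be told apart where reads match both. Gstm1, also of the mu class, was at 57.0 and 80.0 CPM in enterocyte-like cells (log2 0.49, 0.35 to 0.62) and at 68.2 and 73.2 CPM in goblet-like cells. Of the 3 enterocyte-like clusters, the one led by Leap2 and Slc2a2 had 62.2 and 122 CPM of Gstm1 (log2 0.97, 0.72 to 1.23) and the other 2 had log2 ratios of 0.26 and 0.19. That cluster was 18.6% of WT and 21.1% of MG53-TG enterocyte-like cells.

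Gsr (chr8:33652523-33698163, GRCm38, + strand) was at 77.0 and 51.3 CPM in WT and MG53-TG, a log2 ratio of −0.59 (−0.64 to −0.53). Its level was lower in MG53-TG in all 9 types and in 19 of 20 epithelial clusters. Stem-like cells had 104 and 74.6 CPM, goblet-like cells 27.5 and 18.5 CPM, Paneth-like cells 17.1 and 9.71 CPM and enteroendocrine-like cells 69.2 and 41.3 CPM. The exception was the enterocyte-like cluster led by Leap2 and Slc2a2, at 73.2 and 101 CPM in WT and MG53-TG. With the 9 types weighted equally, the ratio in the epithelium was −0.39, and with doublets kept, another UMI minimum, a mitochondrial limit of 50%, a marker gate per cell or marker genes out of the totals it was −0.58, just inside 1.5-fold. T cell-like cells had 16.8 and 14.9 CPM. Empty WT droplets had 54.5 CPM of Gsr, above the WT level in 4 of the 9 types, goblet-like and Paneth-like cells among them. The part of free RNA in these levels was not tested.

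Mgst1, a microsomal transferase and peroxidase (chr6:138140316-138156755, GRCm38, + strand), was at 595 and 405 CPM in WT and MG53-TG (log2 −0.56, −0.57 to −0.54), just short of 1.5-fold. It was past that threshold with median of ratios scaling (−0.65), a mitochondrial limit of 50% (−0.66), the mean of single-cell CPM (−0.72) or Paneth-like cells left out (−0.63). With the 50% limit Gsr was at −0.58, so that Mgst1 was then the 1 lower gene in its place. It was abundant in absorptive cells, with 1260 and 1105 CPM in Gsdmc-high transit-like and 1095 and 947 CPM in enterocyte-like cells. By cluster, log2 ratios were −0.04, −0.74 and −0.52 in enterocyte-like cells and −0.59 and −0.07 in ileal enterocyte-like cells. The Sst-led enteroendocrine-like cluster had 142 and 101 CPM and the Tph1-led one 39.9 and 82.2 CPM. In goblet-like, secretory progenitor-like and Paneth-like cells Mgst1 was low and differed more. Goblet-like cells had 40.6 and 15.1 CPM (log2 −1.42, −1.60 to −1.26), secretory progenitor-like cells 55.8 and 26.3 CPM (−1.09, −1.36 to −0.82) and Paneth-like cells 68.6 and 27.2 CPM (−1.33, −1.60 to −1.08). Tuft-like cells went the other way, with 62.4 and 78.8 CPM.

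Within the goblet-like cells the difference in Mgst1 was not even. The cluster led by Agr2 and Fkbp11 had 62.4 and 22.7 CPM in WT and MG53-TG, the one led by Mptx1 had 8.18 and 8.03 CPM, and the third 15.4 and 6.96 CPM, the last from 47 and 18 UMIs. The share of goblet-like cells in the Mptx1 cluster was 23.8% in WT and 37.6% in MG53-TG. The non-cycling cluster of secretory progenitor-like cells had 41.8 and 8.38 CPM, and the cycling one, whose share of these cells was 15.9% and 30.1%, had 102 and 56.4 CPM. Empty WT droplets had 280 CPM of Mgst1, above the level in all these secretory cells. T cell-like cells, which lie outside the epithelium, had 14.0 and 14.9 CPM in WT and MG53-TG. Enterocyte markers summed to 2411 and 2533 CPM in goblet-like cells, with a median log2 ratio of −0.23 and 10 of 12 tested below 0. Markers of Gsdmc-high transit cells summed to 1238 and 972 CPM there, with a median of −1.24 over 2 tested genes. Paneth markers in stem-like cells summed to 1115 and 482 CPM. The part of free RNA in the difference was not tested. The ratio in goblet-like cells was −0.52 when the 32 genes were allowed among those used for clustering, and that in secretory progenitor-like cells −0.56 with a lower and −0.53 with a higher UMI minimum, all short of 1.5-fold.

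**Figure D4:**
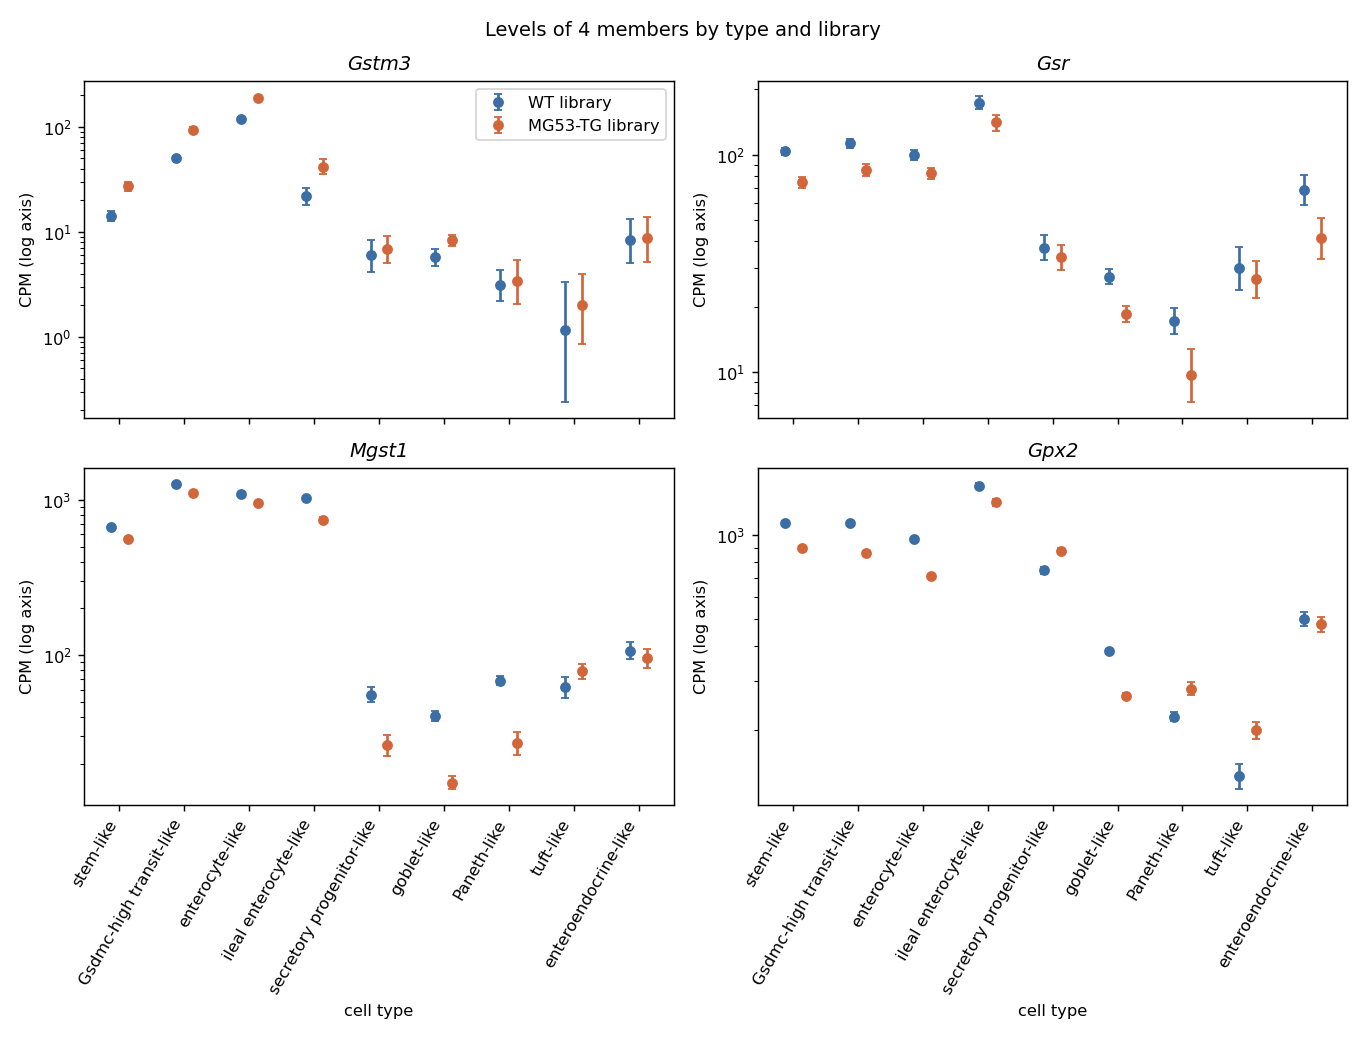
Level in CPM (log axis) of Gstm3, Gsr, Mgst1 and Gpx2 in 9 epithelial types, WT in blue and MG53-TG in orange, with exact 95% Poisson intervals for counting error. The point of Gstm3 is higher and that of Gsr lower in MG53-TG in every type, with intervals that overlap in secretory progenitor-like and tuft-like cells for both and in Paneth-like and enteroendocrine-like cells for Gstm3, the 2 levels of Mgst1 part most in goblet-like, secretory progenitor-like and Paneth-like cells, and Gpx2 changes side between types.

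Gpx2 showed opposite directions in different types. It was lower in MG53-TG in stem-like (1105 and 895 CPM), Gsdmc-high transit-like (1102 and 861 CPM), enterocyte-like (968 and 712 CPM) and goblet-like cells (383 and 265 CPM), with log2 ratios of −0.30, −0.36, −0.44 and −0.53. It was higher in secretory progenitor-like (746 and 876 CPM), Paneth-like (224 and 282 CPM) and tuft-like cells (137 and 200 CPM), at 0.23, 0.33 and 0.55. None of these passed 1.5-fold, and the difference between types was not tested. Empty WT droplets had 545 CPM of Gpx2, above the levels of goblet-like, Paneth-like and tuft-like cells in both libraries. The part of free RNA in these levels was not tested. In secretory progenitor-like cells the cycling cluster went the other way, at 1110 and 908 CPM, against 634 and 858 CPM in the non-cycling one. The cycling cluster was 15.9% of WT and 30.1% of MG53-TG secretory progenitor-like cells, and the part of this share in the ratios of the type was not tested. In tuft-like cells the Nrgn-led cluster, which was 70.1% of WT and 67.7% of MG53-TG tuft-like cells, also went the other way, at 39.5 and 19.5 CPM (log2 −1.02, −1.56 to −0.48), against 333 and 577 CPM in the Nrep-led one. The goblet-like clusters led by Agr2, Mptx1 and Ido1 had 574 and 401, 163 and 155, and 48.9 and 41.0 CPM (log2 −0.52, −0.07 and −0.26). The Mptx1-led one was 23.8% of WT and 37.6% of MG53-TG goblet-like cells. Prdx6, the peroxiredoxin that uses glutathione, was lower in MG53-TG in 8 of 9 types and in 19 of 20 clusters, at 368 and 273 CPM in the epithelium (log2 −0.43, −0.45 to −0.41), with tuft-like cells at 319 and 327 CPM. T cell-like cells had 261 and 240 CPM of it.

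Nfe2l2 itself was at 125 and 152 CPM in WT and MG53-TG (log2 0.28, 0.24 to 0.31). It was higher in the 4 stem and absorptive types, in secretory progenitor-like and in goblet-like cells, and lower in Paneth-like, tuft-like and enteroendocrine-like cells. Keap1 was at 38.0 and 40.8 CPM. Txnrd1, thioredoxin reductase, was at 109 and 123 CPM and higher in 8 of 9 types, among them Gsdmc-high transit-like cells at 120 and 155 CPM (log2 0.36). Of other genes known as Nrf2 targets, Gclm was at 41.5 and 41.2 CPM, Srxn1 at 32.4 and 30.5 CPM, Prdx1 at 1177 and 988 CPM and Nqo1 at 16.3 and 11.9 CPM. The transferases Gstm3, Gstp1 and Gstm1 were higher, with log2 ratios of 0.68, 0.40 and 0.38. Among further genes listed as Nrf2 targets, 7 of 15 tested lay above 0 and 8 below, with a median of −0.02. In Gsdmc-high transit-like cells, where Nqo1 was highest, it was at 38.6 and 38.0 CPM.

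By type, the number of genes past 1.5-fold was small in the large types. Stem-like, Gsdmc-high transit-like and enterocyte-like cells each had 1 higher gene, Gstm3, of 30, 32 and 32 tested, and 0 lower. Over all genes tested, 0.675%, 1.17% and 1.40% were higher and 0.490%, 0.797% and 0.837% lower. Goblet-like and secretory progenitor-like cells had 0 higher and 1 lower, Mgst1, of 29 and 28 tested, against 0.518% and 3.57% of all genes higher and 0.749% and 0.801% lower. The median log2 ratio of the 32 genes was −0.03 in stem-like, 0.03 in enterocyte-like and −0.04 in goblet-like cells, against 0.03, 0.07 and 0.05 over all genes tested there.

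More genes were past the threshold in ileal enterocyte-like, enteroendocrine-like and Paneth-like cells, where the background was also higher than in stem-like or enterocyte-like cells. In ileal enterocyte-like cells 3 were higher (Nfe2l2, Gstm3 and Gstp1) and 2 lower (Nqo1 and Gclc), with 4.92% and 4.51% of all genes. Nfe2l2 was at 107 and 173 CPM in WT and MG53-TG there, Nqo1 at 17.6 and 7.41 CPM and Gclc at 31.1 and 19.1 CPM. The share of ileal enterocyte-like cells in the Saa1-led cluster was 49.0% in WT and 35.1% in MG53-TG, and the calls of Nfe2l2, Gstm3, Gstp1 and Gclc each ended in 4 or more of the alternative settings and that of Nqo1 in 2 (−0.29 with coarser clusters and −0.58 with clusters weighted equally), though none changed direction. In enteroendocrine-like cells 2 were higher (Gstp1 and G6pdx) and 3 lower (Gsr, Cat and Gstt1), with 4.47% and 5.82% of all genes. The call of Gsr ended with a mitochondrial limit of 50% (−0.47) and with clusters weighted equally (−0.55), that of G6pdx with the mean of single-cell CPM (0.24), and those of Cat and Gstt1 in no setting. Within the Tph1-led cluster, which was 44.8% of WT and 35.9% of MG53-TG enteroendocrine-like cells, Gstt1 was at 1566 and 956 CPM, a log2 ratio of −0.71 (−0.86 to −0.56), and Cat at 197 and 107 CPM.

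Paneth-like cells had 0 higher genes and 7 lower of 26 tested, namely Gclc, Gss, Gsr, Prdx6, Gsta1, Mgst1 and Mgst3, where 3.75% of all genes were higher and 9.37% lower. Their median was −0.38, against −0.04 over all genes. When cells were gated one by one on markers, 5 of the 7 calls ended, with Gclc at −0.07, Gss at −0.15, Gsr at −0.32, Prdx6 at −0.24 and Mgst3 at 0.10, while Gsta1 was at −1.16 and Mgst1 at −1.58. The same 5 calls ended when the 32 genes were allowed among those used for clustering. Enterocyte markers in Paneth-like cells had a median of −0.42, and 6 of 14 tested were lower. Cycling markers there had a median of −2.52, with 7 of 7 tested lower and sums of 243 and 41.7 CPM in WT and MG53-TG. Tuft markers were at −3.01 and Gsdmc transit markers at −1.57, whereas secretory progenitor markers were at 0.53 and Paneth markers at 0.26. Paneth markers took 57.3% of their UMIs in WT and 60.1% in MG53-TG. Tuft-like cells had 0 genes past the threshold in either direction of 27 tested, with 4.62% of all genes higher and 2.43% lower.

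**Figure D5:**
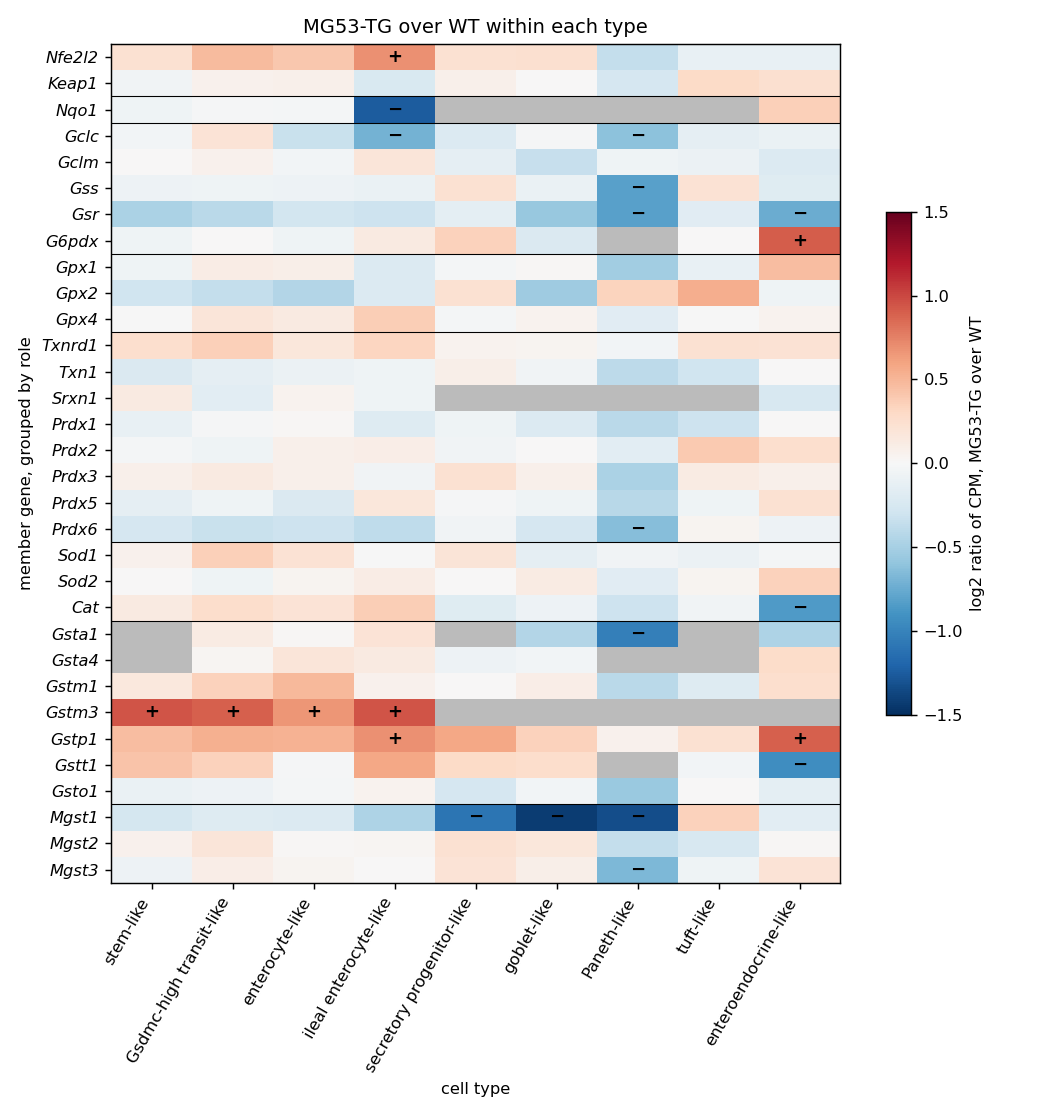
Log2 ratio of CPM, MG53-TG over WT, for each gene (rows, by role) in each type (columns), red for higher and blue for lower in MG53-TG. Plus and minus signs mark ratios past 1.5-fold, and grey cells had fewer than 30 UMIs or less than 10 CPM. Signs gather in the Gstm3 and Mgst1 rows and in the Paneth-like column, where 7 genes are marked lower.

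Several marker lists differed between the libraries beside these values. Markers of the distal small intestine had a median log2 ratio of −0.63 in the epithelium, −1.32 in stem-like, −0.97 in secretory progenitor-like and −0.28 in goblet-like cells, and 0.07 in enterocyte-like cells, whereas proximal markers were at 0.18 in the epithelium. Genes known to respond to cell isolation were at 0.29, with 10 of 11 above 0. Their sums were 407 and 526 CPM, and those of distal markers 6461 and 4158 CPM. T cell markers within epithelial clusters summed to 53.3 and 25.8 CPM in WT and MG53-TG. In ileal enterocyte-like cells proximal markers had a median of 0.88, with 5 of 7 tested over 1.5-fold higher and 1 lower. Distal markers were at −0.49 and enterocyte markers at 0.70 there, and ileal enterocyte markers summed to 8158 and 4437 CPM. In enteroendocrine-like cells distal markers were at −1.70. How far region, dissociation or other cells enter the levels of the 32 genes was not tested.

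Between genotypes, of 78 further genes of the same pathways, 55 were tested in the epithelium, with a median log2 ratio of 0.04, and 1 was over 1.5-fold higher and 0 lower. The higher one was Me1, malic enzyme, which makes NADPH, at 19.5 and 34.4 CPM in WT and MG53-TG (log2 0.82, 0.74 to 0.90). It was also higher in the 6 types in which it could be tested, from 0.61 in ileal enterocyte-like to 1.22 in secretory progenitor-like cells. The next were Slc1a5, a glutamine carrier (43.2 and 58.7 CPM), Gstp2, Osgin1 and Chac2. At the other end stood Tkt, transketolase of the pentose phosphate pathway, at 349 and 252 CPM (−0.47, −0.49 to −0.44), followed by Prdx4, the peroxiredoxin of the endoplasmic reticulum, at 69.9 and 56.6 CPM, Ggct, Gstk1 and Idh1. The 7 tested partners and regulators of Nrf2 had a median of 0.16, or 0.07 with median of ratios scaling, and lay above 0, as did 5196 of all 7576 genes. Between enterocyte-like and stem-like cells 56 of the further genes were tested, of which 18 were over 2-fold higher and 5 over 2-fold lower in both libraries, beside 15.2% and 25.8% of all genes.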

How the data were processed

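Crypt cells of 1 WT and 1 MG53-TG mouse library were profiled with 10x Genomics 3′ chemistry. The deposited tables hold raw UMI counts per gene and barcode, which per the file headers the authors made with Cell Ranger (version 4 for WT, 6.0.1 for MG53-TG); the submitters' processing notes name mm10 and Seurat. The WT table holds 2005718 barcodes (158455748 UMIs) and that of MG53-TG holds 12361 barcodes, none under 500 UMIs (128227881 UMIs). The treatment of reads that match several genes is not given in the sources used here.

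Barcodes with at least 1354 UMIs and 200 genes and at most 25% mitochondrial UMIs were kept (7401 and 5153, of which 8 barcodes are shared), after 33.7% and 46.1% of those past the first limits had exceeded the last. The highest Scrublet scores, 0.8% per 1000 cells, were removed as doublets (438 and 212), since the automatic limit marked only 0.0135% and 0.0388% of cells. Both libraries were clustered together (Leiden, resolution 1, 2000 variable genes without the 32 members and 78 related genes, 30 components, 15 neighbours; Python 3.11.15, scanpy 1.11.5, leidenalg 0.10.2, scipy 1.17.1), and clusters were named from marker lists. Counts were summed per type and library and given as CPM. A gene counted as tested with 30 UMIs in both libraries together and 10 CPM in the higher one, and as called past 1.5-fold between genotypes or past 2-fold the same way in both libraries between types. Level intervals are exact Poisson, ratio intervals conditional binomial, and shares Clopper-Pearson, at 95%. Medians used a pseudocount of 1 CPM. The ratio step was tested on simulated data.

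Full values were given for members past 1.5-fold in the epithelium or in 2 or more types, or past 4-fold between types in both libraries, and from the 78 related genes for the 5 highest and 5 lowest ratios. The members and lists were chosen with earlier results of these data known. The alternatives numbered 19, of which 3 were chosen after seeing the data.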

Additional observations from a re-analysis of the deposited data

Results flagged for a closer look

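Signal of the 32 genes was also present in barcodes outside the epithelial comparisons, above the limit that a count of 0 allows. In T cell-like cells they summed to 2736 CPM in WT, with 29 genes over 3 UMIs, and to 2787 CPM in MG53-TG, with 28 genes over 3 UMIs. In empty WT droplets they summed to 6308 CPM, with all 32 genes over 3 UMIs.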

How the results depend on the processing

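Of the values that answer a comparison, 114 stayed close to the reported one over the alternatives and 25 moved; of those of single genes, 590 stayed, 192 moved and 1 reversed, Mgst3 in Paneth-like cells under a marker gate per cell (0.10). The cause was not tested. The median of the 32 genes in the epithelium was −0.11 with median of ratios scaling, −0.10 with the mean of single-cell CPM, 0.02 with types weighted equally and −0.08 without Paneth-like cells, and in enterocyte-like cells −0.13 with a mitochondrial limit of 50%. The median of the related genes was −0.05, −0.05 and −0.03 with the first, the second and the last of the epithelial settings. The count of higher genes was 0 with the mean of single-cell CPM, 4 at a lower fold threshold and 0 at 2-fold. The count of lower genes was 2 with median of ratios scaling, with the mean of single-cell CPM and without Paneth-like cells (Gsr and Mgst1), 5 at the lower fold threshold, and 0 at 2-fold, with doublets kept, a lower or higher UMI minimum, a marker gate per cell, types weighted equally or marker genes out of the totals. The count of genes over 2-fold lower in enterocyte-like than in stem-like cells was 2 with a mitochondrial limit of 50%, and 1 with the mean of single-cell CPM or clusters weighted equally. Leaving out Paneth-like cells or marker genes and weighting clusters were chosen after seeing the data. Gsta1 and Gss in Paneth-like cells and Nqo1 in ileal enterocyte-like cells had no value under some settings. No paired analysis was possible because each genotype has 1 library.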
